A study of Arabidopsis thaliana with 8 samples.

Results

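Ribosome footprints and transcript read depth were set side by side, gene by gene, for the mitochondrial genome of wild type Arabidopsis thaliana (ecotype Col-0). Genes were taken where the Ribo-seq table gave a footprint value and the RNA-seq editing tables listed at least 3 C-to-U editing sites. This kept 29 of the 33 genes with footprints. The other 4, cox1, atp6-1, atp6-2 and atp8, had no listed site and so no depth here. All 29 genes with a listed site had at least 3, with 3 to 38 sites a gene, a median of 11 and 434 in all. Footprints came from 2 Ribo-seq libraries of Col-0 (A and B), and depth from 2 RNA-seq libraries of Col-0 (A and B), which are 4 of the 8 samples of the series. The study used ribosome profiling, the sequencing of mRNA fragments that ribosomes shield from nuclease, to compare ribosome occupancy between the wild type and a pair of mutants, and RNA-seq of Col-0 to measure editing. The mutant libraries were not used.

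All 4 libraries were made from flowers of untreated wild type plants grown for 10 to 12 weeks, with no transgene or mutation given in the labels. Ribo-seq started from flowers ground and taken up in a ribosome extraction buffer and used a small RNA kit, and its labels name mitochondria as the source. RNA-seq used total RNA treated with DNase and depleted of ribosomal RNA, and its labels name whole cells as the source. The kinds of library therefore differ in source, extraction and kit as well as in what they measure, and these cannot be told apart in any difference between footprints and depth. No label ties A and B to different plants or pools of plants, so each p-value stands for the spread between 2 libraries of a kind, and that spread may be technical. The tables hold mitochondrial genes, so the flower label was not checked against tissue markers.

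Plant mitochondria keep a small genome that encodes core subunits of the respiratory chain and of ATP synthase, factors that attach heme to cytochrome c, and ribosomal proteins. The partner subunits of each complex come from nuclear genes and are imported. Many transcripts carry introns or several reading frames, and C-to-U editing changes many codons before translation. A ribosome footprint count reflects both how much of an mRNA is present and how densely ribosomes sit on it, which is why footprints are commonly read against transcript level. The subunits of a complex are needed in fixed proportions, so the proportions among their footprints and among their transcripts are each of interest.

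Depth was the median, over a gene's listed sites, of the number of RNA-seq reads covering the site. The sites are therefore the sampling points of the transcript measure, and a few are shown because the results below turn on how they differ within a gene. Each line gives 26 bases around a listed site as deposited, on the transcript strand, with the edited base (place 21, written T) in capitals; the coding sites of highest and of lowest mean coverage are given for each of 6 genes.
cox3, high: ttttgcttttttttgggcttTttttc
cox3, low: atttatggttctacctttttTttagc
atp4, high: tcctaacgaagtagttctttTggaat
atp4, low: ccgaaacttaaatgttaagtTagcaa
nad6, high: cttcttcgctatgatcttccTagtag
nad6, low: tataggagctatagccgtttTattcc
cob, high: taggcgccagtcttcttcatTtggcc
cob, low: ctaatggggcaagtatgtttTttatt
cox2, high: tgtaacatctgctgatgtacTtcata
cox2, low: ttgttctaaaatggttattcTttaca
atp1, high: gaaacaagtatgcggtagttTaaaac
atp1, low: tcaatatgagaaagccattcTaaata
In the mitochondrial genome of the TAIR10.1 assembly, which may not be the build the authors used, all 12 bases lie in annotated coding sequence and are C in the genome. The high site of cox2 is at position 6820 of MT on the plus strand and was covered by 5505 reads in RNA-seq A and 9246 in B, whereas its low site at 6288 was covered by 12 and 43 reads. The high site of cox3 is at 330463 on the minus strand, with 244 and 575 reads in A and B, and its low site is at 330171, with 15 and 6 reads. Coverage thus differed many-fold between sites of 1 transcript, also within 1 library.

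The gap between the sites shown varied from gene to gene. The atp1 sites at 67444 and 67207 (minus strand) had 1283 and 208 reads in A, and 3038 and 472 reads in B. The nad6 sites at 165998 and 166028 (plus strand) had 64 and 2 reads in A, and 87 and 1 in B, although they lie close together. The cob sites at 182249 and 182573 (minus strand) had 350 and 2 reads in A, and 547 and 6 in B. In atp4, on the plus strand, the site at 362456 had 556 reads in A and 1131 in B, and the site at 362600 had 27 and 4. Over all genes, the SD of log2 coverage between the sites of a gene had a median of 1.55 in RNA-seq A and 1.89 in RNA-seq B. The SD over genes of the log2 difference between libraries A and B was smaller, at 0.31 for footprints per kb and 0.89 for depth. With each library centred on its median gene, the median absolute difference was 0.19 for footprints per kb and 0.30 for depth on the log2 scale.

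**Figure D1:**
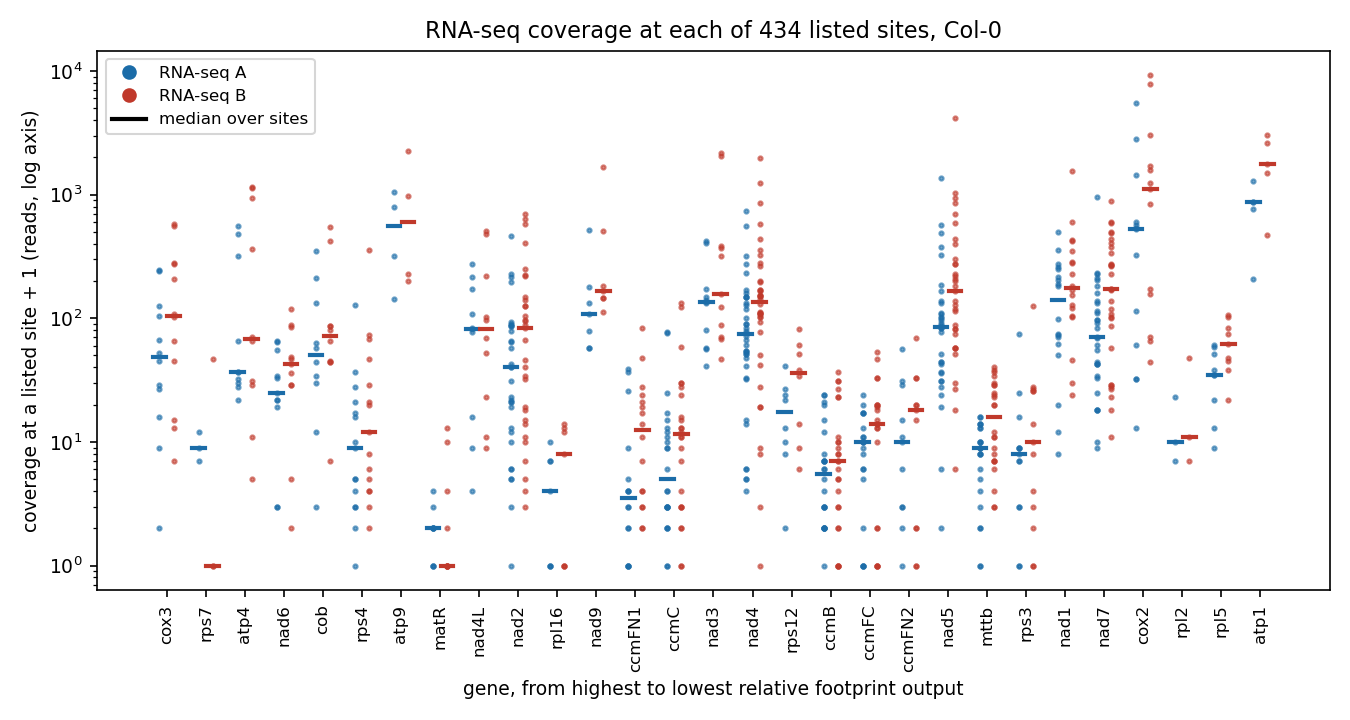
Coverage in reads plus 1 (log axis) at each of the 434 listed sites, for RNA-seq libraries A (blue) and B (red), with genes ordered along the horizontal axis by relative footprint output, highest first. Short bars mark the median over a gene's sites, which is the depth used; the points of most genes spread widely around their medians, and B, which held more reads, lies above A in most genes.

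The RNA-seq libraries held 46892 (A) and 100704 (B) reads over the 434 sites, with a median of 24 and 43 reads per site. The median gene had a depth of 34 reads in A and 61 in B, and 16 of the 29 genes had a depth of at least 20 in both. matR had a depth of 1 read in A and 0 in B, and rps7 had 8 and 0, so their positions rest on very few reads. Of the 3 rps7 sites, 2 lie before its annotated coding sequence. Reads behind the normalized footprint values are unknown, and the 29 genes held 78.7% (A) and 79.7% (B) of the footprint table. Footprints are given below as normalized counts per kb of annotated coding length.

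Ranks of the genes by footprints and by depth were broadly alike. Footprints per kb spanned 461-fold over the 29 genes, and depth spanned 265-fold over the 27 genes with depth above 0 in both libraries. These ranges cannot be set against each other, since matR, the lowest in footprints per kb, is outside the second. Among the 27 genes, mean footprints per kb ran from 473 (ccmB) to 83098 (atp9), and mean depth from 5 (rpl16) to 1325.5 reads (atp1). Spearman's rho between the means was 0.863 and Pearson's r of the log2 values was 0.910 across 29 genes, as a description, since genes are not replicates and all values come from the same libraries. Without division by length, rho was 0.859. The replicate libraries ranked the genes more closely, with rho 0.985 between Ribo-seq A and B and 0.949 between RNA-seq A and B. Among the 16 genes with a depth of at least 20 in both RNA-seq libraries, rho was lower, at 0.450. That cut also narrows the range of depth, and rho among the genes below it was not computed.

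atp9, cox2 and atp1 were at the top of both orders. By footprints per kb the order was atp9, cox2, cox3 and atp1, and by depth it was atp1, cox2 and atp9, with cox3 ranked 11. atp9, the ring-forming c subunit of ATP synthase, had 104516 and 61680 footprints per kb in Ribo-seq A and B, against a depth of 554.5 and 604 reads in RNA-seq A and B. Its Ribo-seq libraries differed more than those of its neighbours in the order, but both lay above every other gene. cox2, a copper-carrying subunit of cytochrome c oxidase, had 36056 and 34387 footprints per kb, against 530 and 1103 reads. atp1, the alpha subunit of the ATP synthase head, had 26408 and 25313 footprints per kb, against 870 and 1781 reads.

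Below them, the 9 complex I genes and cob filled the places from 6 to 15 by footprints per kb, and no gene of the ribosomal proteins or of cytochrome c maturation ranked above 16. By depth, rpl5 ranked 15 and stood above nad6, the only crossing of these classes. The lowest genes by footprints per kb were matR with 203 and 149, ccmB with 501 and 444, and rpl2 with 604 and 362. The lowest by depth were matR, rps7 and rpl16, the last with 3 reads in A and 7 in B, against 707 and 546 footprints per kb. The depth of rpl16 includes sites without reads in the bases it shares with rps3. For 20 genes the ranks lay within 3 places of each other, and for 9 they were at least 6 places apart.

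**Figure D2:**
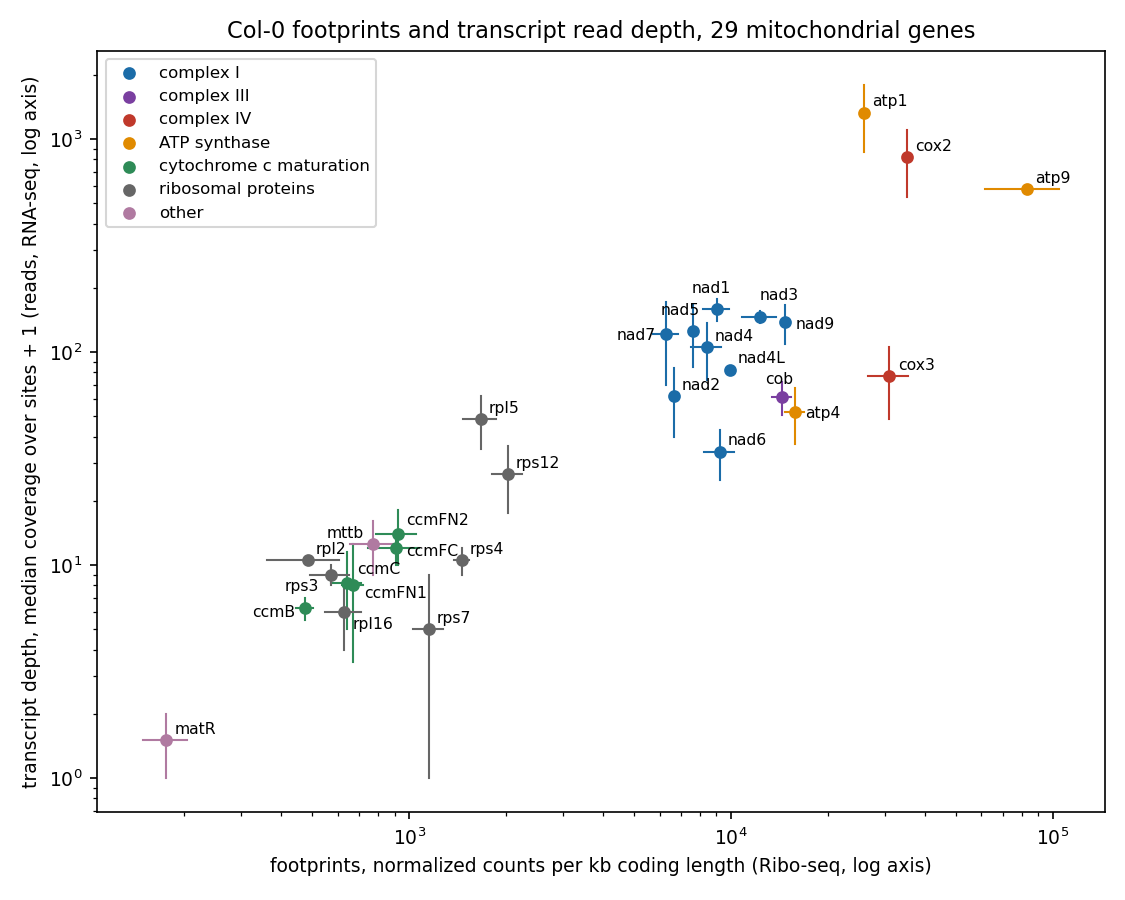
Footprints per kb of coding length (horizontal, normalized counts, log axis) against transcript depth plus 1 (vertical, reads, log axis) for the 29 genes, coloured by complex. Points are means of A and B and bars join the libraries A and B; cox3, cob, atp4 and nad6 lie to the right of genes of like depth, and atp1 and rpl5 lie above genes of like footprints.

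Relative footprint output asked which genes carried more or fewer footprints than their depth would place them. It is the log2 of footprints per kb in Ribo-seq minus the log2 of depth in RNA-seq, each library centred on its median gene, tested with limma in 1 fit over the 29 genes and adjusted by Benjamini-Hochberg with a threshold of 0.05. Output was higher in 4 of the 29 genes (13.8%), namely cox3, atp4, nad6 and cob, and lower in 14 (48.3%), led by atp1, rpl5, rpl2 and cox2. The SD of log2 over the 29 genes was 2.36 for footprints per kb and 2.41 for depth, and that of relative output was 1.01. The median gene in relative output stood at -0.64 and not at 0, because the median genes of the Ribo-seq and RNA-seq libraries are not the same. The split between higher and lower therefore depends on where 0 is set: centring on the mean gave 4 higher and 4 lower, centring on the median of relative output gave 4 higher and 3 lower (atp1, rpl5 and cox2), and equal totals gave 4 higher and 2 lower (atp1 and rpl5).

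**Figure D3:**
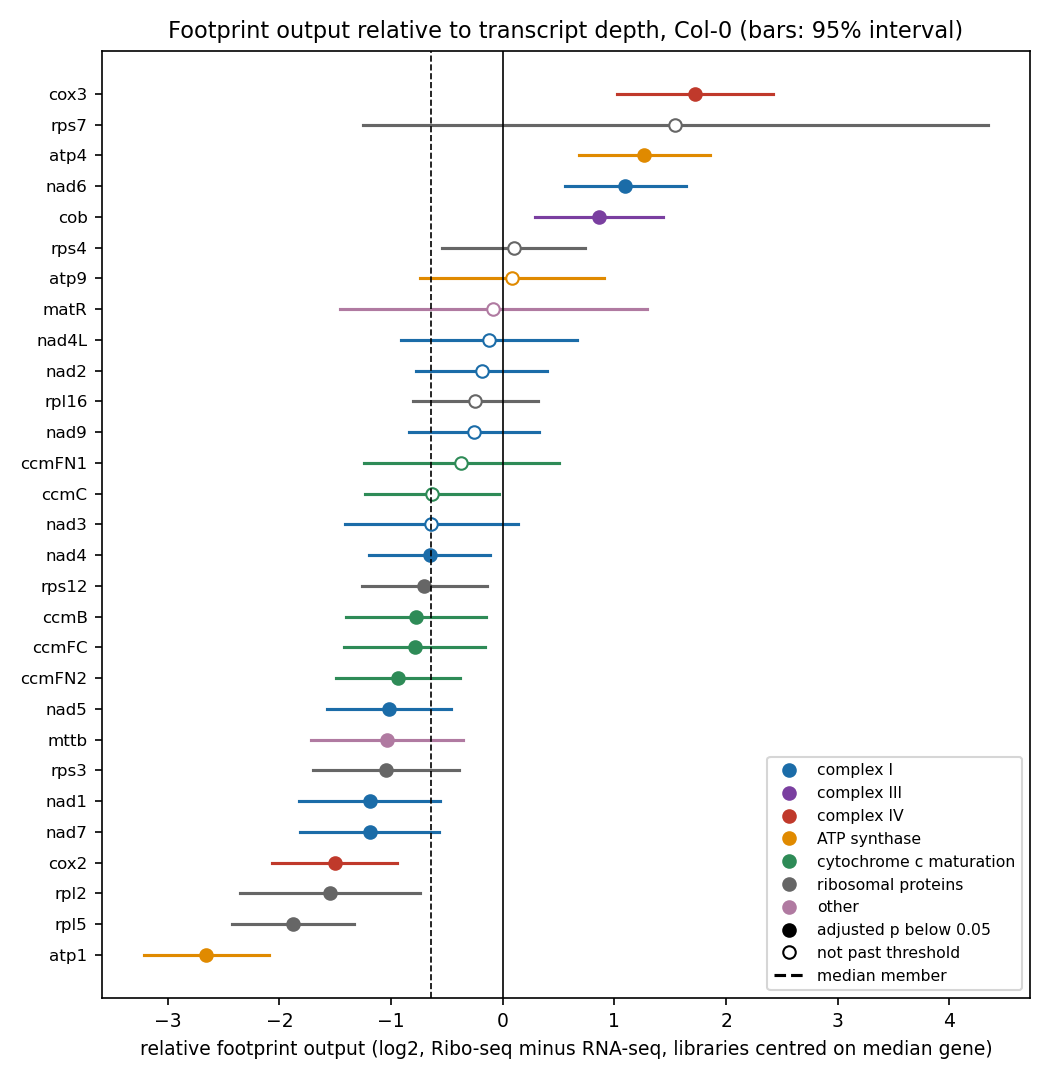
Relative footprint output (horizontal, log2, Ribo-seq minus RNA-seq) of the 29 genes in order, with 95% intervals from limma over 4 libraries. Filled points passed an adjusted p of 0.05, the solid line marks 0 and the dashed line the median gene at -0.64; cox3, atp4, nad6 and cob are the filled points right of 0.

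Genes with higher output came from 4 different complexes. cox3, a core membrane subunit of cytochrome c oxidase, had 26692 and 35464 footprints per kb in Ribo-seq A and B, against a depth of 47.5 and 104 reads in RNA-seq A and B. Its relative output was 1.72 (SE 0.29, adjusted p = 0.00605, limma with Benjamini-Hochberg), the highest of the 29. Of its 12 sites, 4 lie beyond the annotated stop codon; with coding sites alone the value was 0.68 and missed the threshold (adjusted p = 0.0584, limma with Benjamini-Hochberg).

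atp4, the b subunit in the peripheral stalk of ATP synthase, had 14717 and 16801 footprints per kb, against 36 and 66.5 reads. Its relative output was 1.27 (SE 0.24, adjusted p = 0.0102, limma with Benjamini-Hochberg). This value depends on how depth is read from its 10 sites. The 3 neighbouring sites at 362453, 362455 and 362456 had 942, 1153 and 1131 reads in RNA-seq B, and 1 more, at 362621, had 363, whereas the other 6 had 4 to 69. With the mean coverage in place of the median the value was -0.99, with the highest site -0.53, and with the upper quartile -1.42. The place of 0 among the genes moves with the measure as well. Relative to the median gene in relative output, atp4 stood at 1.91 with the median of sites and 0.26 with the mean. On that scale it stood at 0.31 with the highest site and -0.58 with the upper quartile.

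nad6, a membrane subunit of complex I, had 10189 and 8243 footprints per kb, against 24 and 42 reads, the lowest depth of the 9 complex I genes. Its relative output was 1.10 (SE 0.22, adjusted p = 0.0112, limma with Benjamini-Hochberg), and it kept its call in a fit without moderation of the variance, as did atp1 and rpl5 and no other gene. cob, which encodes cytochrome b of complex III, had 15366 and 13421 footprints per kb, against 49.5 and 71.5 reads. Its relative output was 0.86 (SE 0.24, adjusted p = 0.0206, limma with Benjamini-Hochberg), and -0.03 with mean coverage. rps7, a protein of the small ribosomal subunit, stood at 1.55 with a 95% interval from -1.25 to 4.34 and did not pass.

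At the low end, atp1 stood furthest from the rest at -2.65 (SE 0.23, adjusted p = 0.000555, limma with Benjamini-Hochberg). It ranked 1 by depth and 4 by footprints per kb. The 5 sites of atp1 lie between bases 1110 and 1484 of its coding sequence of 1524 bases, so its depth samples only that part. rpl5, of the large ribosomal subunit, had 1864 and 1470 footprints per kb, against 34 and 61 reads. Its relative output was -1.88 (SE 0.22, adjusted p = 0.00188, limma with Benjamini-Hochberg) (rank 17 by footprints per kb and 15 by depth). atp4, at a depth close to that of rpl5, ranked 5 by footprints per kb. rpl2, also of the large subunit, stood at -1.55 on 3 sites, with a depth of 9 and 10 reads. cox2 stood at -1.51, and with the lower quartile of coverage in place of the median it stood at 0.53.

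The other 10 genes with lower output lay between -1.19 and -0.65. They were nad7 and nad1, both at -1.19, nad5 at -1.02 and nad4 at -0.65 in complex I, rps3 at -1.05 and rps12 at -0.70 among the ribosomal proteins, ccmFN2 at -0.94, ccmFC at -0.79 and ccmB at -0.78 in cytochrome c maturation, and mttb, which encodes a TatC-like membrane protein, at -1.04. nad7 had 6862 and 5726 footprints per kb against 69 and 171 reads, and nad1 had 9860 and 8206 against 139 and 175.5. These 4 complex I genes lay above nad6 in depth in both RNA-seq libraries. In footprints per kb they lay below nad6 in both Ribo-seq libraries, nad1 by the least and nad7 by the most. None of the 10 passed once relative output was centred on its own median, so their calls hold only against the median genes of the libraries. The 11 genes past the threshold in neither direction lay between -0.64 (nad3 and ccmC) and 1.55 (rps7), among them nad9 at -0.25, atp9 at 0.08 and rps4 at 0.10.

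Footprints and depth of the remaining genes called lower were as follows. nad5 had 7636 and 7649 footprints per kb in Ribo-seq A and B, against 84 and 164 reads of depth in RNA-seq A and B, and nad4 had 9286 and 7491, against 73 and 135.5. In cytochrome c maturation, ccmFN2 had 1052 and 789, against 9 and 17 reads, ccmFC had 1074 and 744, against 9 and 13, and ccmB had 501 and 444, against 4.5 and 6. These 3 had low footprints and few reads alike. rps3 had 649 and 493 footprints per kb, against 7 and 9 reads, and mttb had 652 and 887, against 8 and 15. ccmFN1, the highest of the cytochrome c maturation genes in relative output at -0.37, had 720 and 619, against 2.5 and 11.5 reads, and rps7 had 1271 and 1027, against 8 and 0. The depth of both genes differed between RNA-seq A and B by more than that of the others just named.

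These calls rest on 2 libraries a kind. With 1 Ribo-seq library the spread comes from the RNA-seq pair alone, and the lone library is assumed to vary like it. Without Ribo-seq A or without Ribo-seq B no gene passed limma's adjusted threshold, with lowest adjusted p-values of 0.0756 and 0.0813 and 10 genes at an unadjusted p under 0.05 in each case, against 19 with all 4 libraries. In those fits atp1 stood at -2.60 and -2.71, nad6 at 1.03 and 1.16, cox3 at 2.02 and 1.43, ccmFC at -0.97 and -0.61 and mttb at -0.73 and -1.35, and atp9, which passed in no such fit, at -0.21 and 0.38. With 1 RNA-seq library the spread comes from the Ribo-seq pair alone. The SD of A minus B over genes was 0.31 for footprints per kb and 0.89 for depth on the log2 scale. Fits of this kind therefore cannot show that the calls hold. Without RNA-seq A and without RNA-seq B, atp1 stood at -2.76 and -2.55, atp4 at 1.25 and 1.29, and ccmFN1 at -0.88 and 0.13.

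The position of a gene relative to the median gene was followed over 6 measures of depth: the median, mean, lower quartile, upper quartile and highest of the sites, and the median of coding sites. Of the 29 genes, 14 stayed on 1 side of the median gene under each of these measures that gave them a value, and 15 did not. cox3 stayed above it by 1.36 to 2.37, nad6 by 0.82 to 2.71 and cob by 0.87 to 1.51 on the log2 scale. atp1 stayed below it, between -3.14 and -0.28, as did rpl2 between -1.99 and -0.17 and nad7 between -1.22 and -0.50. atp4 ranged from -0.58 to 1.91, cox2 from -1.69 to 0.76 and rpl5 from -2.01 to 0.38.

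**Figure D4:**
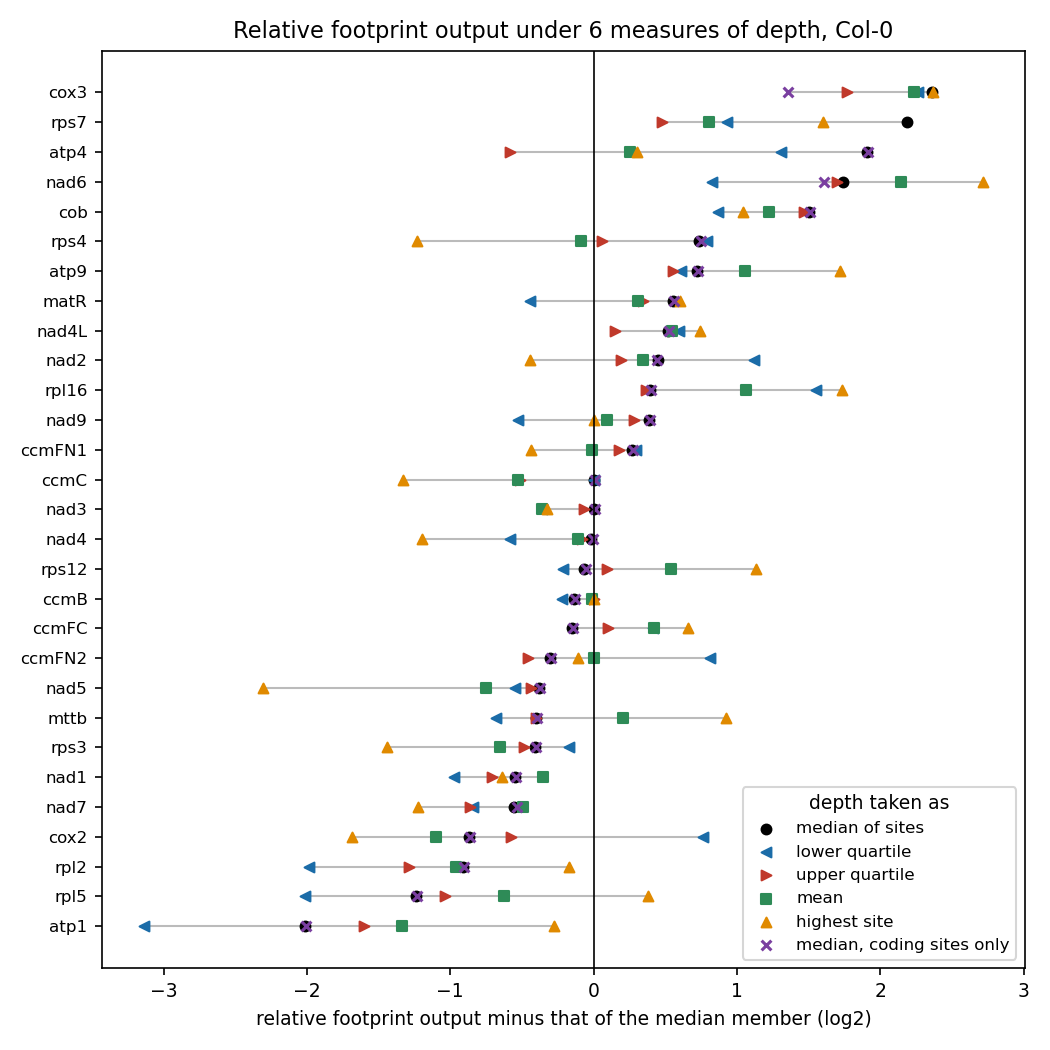
Relative footprint output minus that of the median gene (horizontal, log2) for the 29 genes, with 1 marker per measure of depth and a grey line over their range. cox3, nad6 and cob have all markers right of 0 and atp1 has all markers left of it, whereas atp4, cox2 and rpl5 have markers on both sides.

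Subunit balance compared genes with their partners in the same library, which cancels any scaling between the kinds of library. Within complexes, footprints per kb lay closer together than depth. Pooled over the 4 lists with at least 3 genes, the SD of log2 was 0.670 for footprints per kb and 1.17 for depth. In each of the 4 lists both Ribo-seq libraries had a smaller SD than both RNA-seq libraries: 0.35 and 0.46 against 0.81 and 0.70 in complex I, 1.45 and 0.96 against 2.47 and 2.41 in ATP synthase, 0.46 and 0.33 against 0.66 and 0.50 in cytochrome c maturation, and 0.76 and 0.92 against 0.98 and 1.89 among ribosomal proteins. This is a description with no test. Depth also differed between its centred libraries (median 0.30) by more than footprints did (median 0.19), and between the sites of a gene, and the part of this in the wider spread of depth was not tested.

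In complex I, footprints per kb of the 9 genes spanned 2.35-fold, with nad9 highest and nad7 lowest, both of the peripheral arm that faces the matrix. Depth spanned 4.79-fold, with nad1 highest and nad6 lowest. nad6 held 12.0% and 9.92% of the complex I footprints per kb in Ribo-seq A and B, and 3.19% and 3.58% of the complex I depth in RNA-seq A and B. nad9 held 16.8% and 18.3% of the footprints per kb, against 14.4% and 14.1% of the depth, and nad7 held 8.05% and 6.89%, against 9.17% and 14.6%. nad6 thus stood near an even share in footprints and far below it in depth, in both libraries of each kind.

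In cytochrome c oxidase only cox2 and cox3 had a depth. The ratio of cox3 to cox2 was 0.740 and 1.03 in footprints per kb (Ribo-seq A and B), against 0.0896 and 0.0943 in depth (RNA-seq A and B). Footprints of the pair were near parity, and depth was far from it. The size of the depth gap depends on the sites: with coding sites alone the ratio was 0.159 and 0.218, with the lower quartile of sites 0.388 and 0.234, and with the highest site 0.0443 and 0.0622, all below both footprint ratios. A list of 2 genes was not tested for balance.

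In ATP synthase, atp9 held 71.8% and 59.4% of the footprints per kb of the 3 measured genes, atp1 18.1% and 24.4%, and atp4 10.1% and 16.2%. In depth the order differed: atp9 held 38.0% and 24.6%, atp1 59.6% and 72.6%, and atp4 2.46% and 2.71%. atp9 protein forms a ring of many copies, atp1 is present in several copies and atp4 in few, which is textbook background for the enzyme. The ratio of atp9 to atp1 was 3.96 and 2.44 in footprints per kb, against 0.637 and 0.339 in depth, so that the order of this pair was the opposite in footprints and in depth, in every library.

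Cytochrome c maturation genes, ccmB and ccmC for heme handling and ccmFC, ccmFN1 and ccmFN2 for heme attachment, were the most even list in depth. Their footprints per kb spanned 1.93-fold and their depth 2.16-fold on the log2(value + 1) scale, with ccmFN2 highest and ccmB lowest in the means of both. The reads behind this are few. Depth ran from 2.5 (ccmFN1) to 9 reads (ccmFN2 and ccmFC) in RNA-seq A, and from 6 (ccmB) to 17 (ccmFN2) in B. The 7 ribosomal protein genes spanned 4.30-fold in footprints per kb, with rps12 highest and rpl2 lowest. Their depth spanned 15.5-fold on the log2(value + 1) scale, with rpl5 highest and rps7 lowest. rpl5 held 21.4% and 20.3% of the footprints per kb of this list, against 39.8% and 45.9% of its depth.

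**Figure D5:**
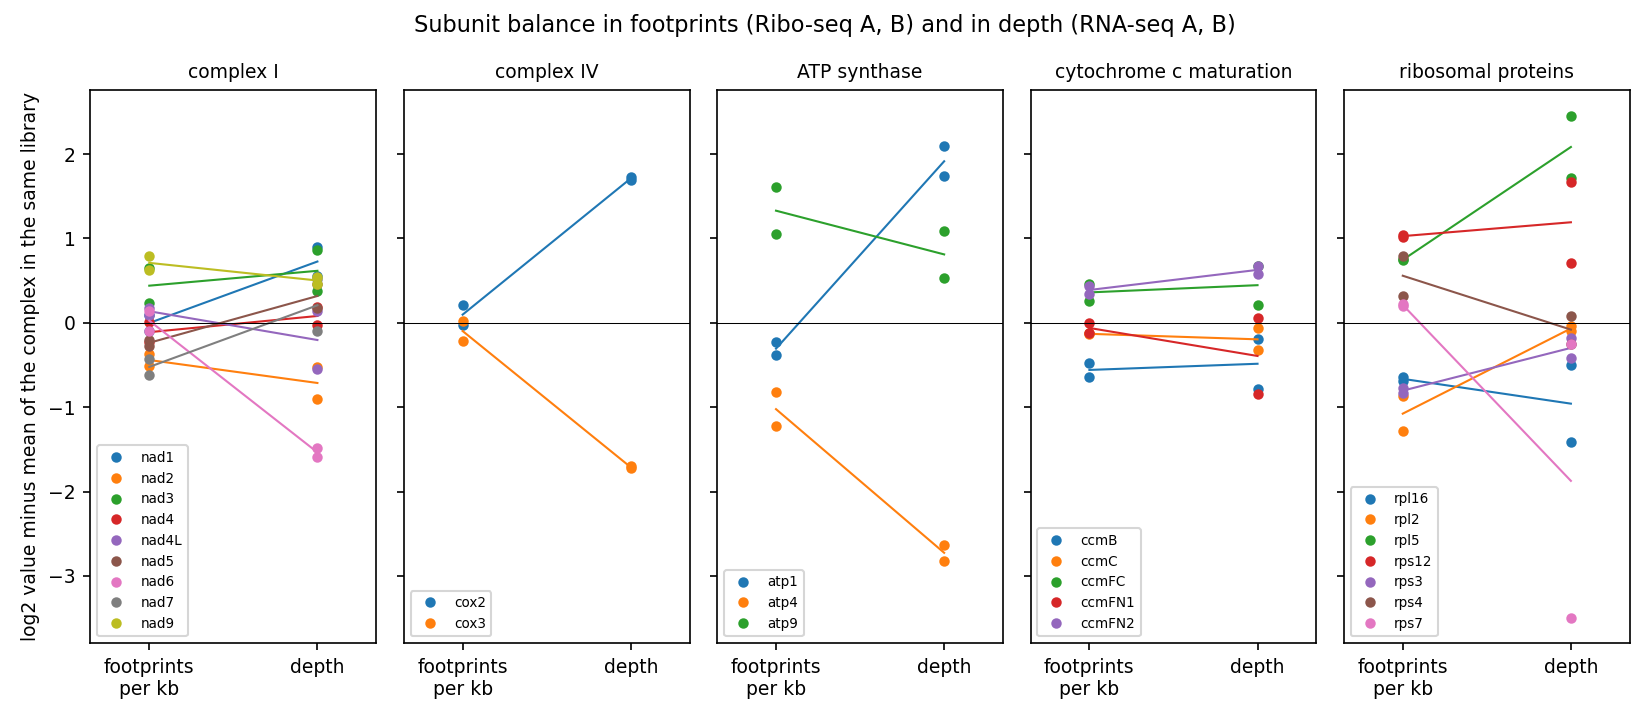
Log2 value minus the mean of the complex in the same library (vertical), for footprints per kb (left of each panel, Ribo-seq A and B) and depth (right, RNA-seq A and B), with a line joining the means of each gene. Points lie closer together on the left than on the right in every panel; the steepest lines are those of cox2, cox3, atp1, atp4, nad6, rpl5 and rps7.

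Balance was tested with limma over the 24 genes of the lists with at least 3 genes. The value tested was the log2 value of a gene minus the mean log2 value of its complex, that gene included. It was higher in footprints than in depth for 3 genes (12.5%) and lower for 3 (12.5%). Values within a list are tied by the common mean, so calls in the same list are not independent. Without moderation of the variance no gene passed. atp4 was higher by 1.70 on the log2 scale (SE 0.30, adjusted p = 0.000438, limma with Benjamini-Hochberg), but by 0.26 with mean coverage (adjusted p = 0.264), and its sign turned with the upper quartile (-0.039) and the highest site (-0.28). nad6 was higher by 1.56 (SE 0.30, adjusted p = 0.000588, limma with Benjamini-Hochberg) and passed under all 6 measures of depth. rps7 was higher by 2.09 (SE 0.64, adjusted p = 0.0196, limma with Benjamini-Hochberg), with a depth of 0 in RNA-seq B. Its sites before the annotated coding sequence had 6 and 8 reads in RNA-seq A and 0 in B. The rps7 site in coding sequence had 11 reads in A and 46 in B. Without RNA-seq B rps7 stood at 0.46, and with all libraries it also passed with mean, upper quartile and highest-site coverage. atp1 was lower, at -2.22 (SE 0.30, adjusted p = 3.37e-05, limma with Benjamini-Hochberg), as were rpl5 at -1.34 (adjusted p = 0.00418) and rpl2 at -1.01 (adjusted p = 0.0194). Centred on the median of each complex in place of its mean, atp1 stood at -1.10 and rps7 at 1.73, and neither passed (adjusted p = 0.123 and 0.361, limma with Benjamini-Hochberg), whereas the other 4 did. With the highest site rpl5 stood at 0.091 and rpl2 at -0.46, and neither passed. No cytochrome c maturation gene passed, with values from -0.24 (ccmFN2) to 0.33 (ccmFN1). With rps7 and matR left out, 4 genes were higher and 5 lower, and without either Ribo-seq library, where the spread comes from RNA-seq alone, none passed limma's threshold (lowest adjusted p 0.0889 and 0.0920, with 3 and 4 genes at an unadjusted p under 0.05). Without either RNA-seq library the spread comes from Ribo-seq alone, so those fits cannot show that the balance calls hold.

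Neighbouring genes on the same strand were compared because plant mitochondrial genes close together are often read into 1 transcript. nad1, nad2 and nad5 are annotated in 5 segments each, and those of nad1 and of nad2 lie on both strands. Gaps to these genes are to 1 segment, whereas the ratios use values of the whole gene. The pair closest together without overlap was nad3 and rps12, with 45 bases between them. nad3, a membrane subunit of complex I, had 10801 and 13821 footprints per kb, against 135 and 155 reads of depth, and rps12 had 2235 and 1810, against 16.5 and 35 reads. The ratio of nad3 to rps12 was 4.83 and 7.64 in footprints per kb and 8.18 and 4.43 in depth, ranges that overlap, and their relative outputs differed by 0.06.

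The overlapping genes rps3 and rpl16, which share 134 bases, had nearly equal footprints per kb, with ratios of 0.917 and 0.902, against depth ratios of 2.33 and 1.29 on few reads. The rpl16 sites at 23318, 23327 and 23345 lie in the shared bases and had 0 reads in both RNA-seq libraries. Those at 23318 and 23327 are also listed for rps3, so the depth ratio depends on how these sites are counted. For nad4L and atp4, 266 bases apart, the ratio was 0.669 and 0.593 in footprints per kb, against 2.26 and 1.23 in depth. rpl2 and mttb, 163 bases apart, had ratios of 0.925 and 0.408, against 1.13 and 0.667, which overlap. The neighbours with the largest gap in relative output were rpl5 and cob, 1903 bases apart. The ratio of rpl5 to cob was 0.121 and 0.109 in footprints per kb, against 0.687 and 0.853 in depth, so the pair was near parity in depth and far from it in footprints. rpl16 and nad9, 840 bases apart, had ratios of 0.0496 and 0.0359 in footprints per kb, against 0.0278 and 0.0424 in depth, which overlap, as did those of nad1 and nad5, 219 bases apart, with 1.29 and 1.07, against 1.65 and 1.07. rps4 and nad2, 763 bases apart, had ratios of 0.214 and 0.225, against 0.205 and 0.133. For nad5 and nad4L, 1508 bases apart, they were 0.776 and 0.768, against 1.03 and 2.01. The maturase gene matR lies within an intron of nad1, and the ratio of nad1 to matR was 48.6 and 55.2 in footprints per kb, against 139 in depth in RNA-seq A, with matR at 0 in B. Whether any of these pairs shared a transcript here was not tested.

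Properties of the genes had weak relations to relative output across the 29 genes, given as descriptions with no p. Listed sites were used in choosing the genes, and coding length divides the footprints, so that its relation is partly set by construction. Spearman's rho with relative output was -0.06 for listed sites per kb, -0.23 for GC content and -0.29 for coding length. GC content had rho of -0.46 with footprints per kb and -0.39 with depth.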

How the data were processed

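Footprint values are the deposited Ribo-seq scores, which the file headers name as normalized counts and the authors rounded to whole numbers, by a method of normalization not given in the sources used here. Depth comes from the deposited counts of RNA-seq reads covering each listed editing site. Per the submitters' processing notes, reads were handled with FastQC, cutadapt 1.9.1, Bowtie 1.1.2 and, for Ribo-seq, featureCounts 1.5.0-p2, with the build, annotation, strand handling, treatment of reads that match several places and counted regions not given in the sources used here. Intervals come from limma and cover the spread between libraries.

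For footprints, 1 was added to the score, the sum was divided by the coding length in TAIR10.1 in kb, and log2 was taken. Depth was analysed as log2(value + 1). limma 3.58.1 in R 4.3.3 contrasted the 2 Ribo-seq with the 2 RNA-seq libraries (two-sided, constant prior, Benjamini-Hochberg over 29 genes for relative output and 24 for balance). Fold differences on this scale are understated for genes of low depth. The fit was also run on simulated data with normal noise of each gene's observed residual SD. That simulation did not model the spread between the sites of a gene, so it cannot show that the calls here hold. Of the 434 site sequences, 417 matched the spliced coding sequence directly with C and T treated as equal, and 425 sites lie in coding sequence. A and B name libraries within a kind and were not treated as pairs, since their labels do not tie them. Genes past the threshold, the extremes of each order and of each complex, and neighbours under 2000 bases apart are given with their values. Members and lists were chosen with earlier results of these data known.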

Additional observations from a re-analysis of the deposited data

How the results depend on the processing

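Depth is limited by few reads in 13 of the 29 genes and by the spread between sites. Of the 18 calls of relative output, 16 each kept their direction and threshold with mean and upper quartile coverage. With either of these measures most of the 29 genes were called, nearly all of them lower. The number kept there therefore says little about the calls. With the highest site 12 did, without division by length 8, and with the lower quartile and with equal totals 6 each. Without moderation of the variance 3 were kept. Fits with 1 library left out take their spread from the pair of the other kind alone, so their counts of calls cannot be set against these. Rank agreement was 0.863 and became 0.800 with at least 10 sites, 0.897 with coding sites, 0.807, 0.892, 0.840 and 0.907 with the highest, mean, lower quartile and upper quartile of coverage, 0.450 at a depth of at least 20, and 0.856 to 0.874 with 1 library left out. The pooled SD of log2 within complexes was 0.344 for footprints against 0.671 for depth with at least 10 sites, 0.544 against 0.839 with at least 5, 0.686 for footprints with coding sites or without rps7 and matR, 0.780 for footprints not divided by length and 0.645 for footprints at a depth of at least 20. For depth it was 1.34, 0.890 and 0.779 with the lower quartile, mean and upper quartile, 1.36 and 0.928 with pseudocounts of 0.1 and 10, and 1.12 to 1.38 with 1 library left out, against 0.670 to 0.692 for footprints. The quartile measures, centring on the median of relative output and leaving out rps7 and matR were chosen after seeing the data.

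Genes with higher and lower output numbered 4 and 14. Higher genes became 9 without division by length, 2 with mean or upper quartile coverage, 1 without moderation of the variance, and 0 to 6 with 1 library left out. Lower genes became 4 centred on the mean, 3 centred on the median of relative output, 2 with equal totals or without moderation, 6 without division by length or at a depth of at least 20, 5 with the lower quartile, 24 with mean coverage, and 0 to 16 with 1 library left out. With the replicate block, which joins libraries of the same letter, 4 genes were higher and 10 lower in output, and 0 and 0 passed in balance. The deviations of A from B in Ribo-seq and in RNA-seq correlated at 0.203 across genes, and the letters are not known to pair libraries. Balance had 3 higher and 3 lower genes. Higher genes became 1 with at least 10 sites, 7 with the highest site, 6 with mean coverage, 0 without moderation, 5 with a pseudocount of 10, and 0 to 5 with 1 library left out. Lower genes became 5 with coding sites, with the upper quartile or without rps7 and matR, 6 without division by length or with the highest site, 8 with mean coverage, 0 without moderation, 1 and 7 with pseudocounts of 0.1 and 10, and 0 to 8 with 1 library left out.

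Direction against 0 turned in these cases. Without division by length, output was -1.05 for atp9, 0.64 for ccmFC, 1.91 for matR, 1.38 for nad2, 0.94 for nad4, 1.01 for nad5, 0.071 for nad7 and 0.71 for rps3. With the lower quartile it was 0.18 for ccmFC, 0.58 for ccmFN2, 0.53 for cox2, 0.89 for nad2 and 1.32 for rpl16. With the highest site it was -0.53 for atp4, 0.089 for mttb, 0.90 for rpl16, 0.29 for rps12 and -2.06 for rps4. With mean coverage it was -0.99 for atp4, -0.026 for cob, -1.34 for rps4 and -0.45 for rps7, and with the upper quartile -1.42 for atp4 and -0.78 for rps4. With equal totals it was 0.11 for nad4 and 0.062 for rps12, and matR ranged from -0.997 to 0.828 with 1 library left out. Changing the measure of depth also moves the median of relative output. Relative to that median, with mean coverage, atp4 stood at 0.26, cob at 1.22 and rps7 at 0.80, all still above it. On the same scale rps4 stood at -0.09 with mean coverage. With the highest site atp4 stood at 0.31 and rps4 at -1.23. In balance, atp4 stood at -0.28 and -0.039 with the highest site and the upper quartile, and rpl5 at 0.091 with the highest site. Among genes past the threshold in neither setting, the sign turned 42 times, in 11 genes and 14 settings. The cause was not tested beyond what each setting changes. Leaving out atp6-1 and atp6-2 gave no value of its own, since neither is among the 29 genes. Block, centring and variance settings do not enter the ranks or spreads.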
